A study of Homo sapiens with 10 samples.

Results

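The immune checkpoint and do-not-eat-me genes CD274, PDCD1LG2, CD80, CD86, HHLA2, VSIR, VSIG4, LGALS9, SIGLEC9 and CD47 were followed by symbol. All 10 were measured, each by 1 probe set, among 17687 named genes. RNA came from human myeloid lines on 10 single-colour arrays, with 1 array per condition. The treated arrays held HL60 (acute myeloid leukaemia) and K562 (chronic myeloid leukaemia) after 500 nM OR21, and MDSL and SKM1 (myelodysplastic syndrome) after 100 nM OR21, each for 96 hours. OR21 is the compound OR-2100, described in the title as a hypomethylating agent. The AZA resistant and OR21 resistant derivatives of HL60 were labelled as controls and carried no OR21, and the sources used here do not say whether either is a single clone. Their reference was the control array of parental HL60, and the treated lines had the untreated control array of the same line. MDSL was grown with interleukin 3, and for K562 no medium was given.

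T cells are restrained by ligands of the B7 family that presenting cells and tumour cells carry on their surface. CD274 (PD-L1) and PDCD1LG2 (PD-L2) bind the inhibitory receptor PD-1, whereas CD80 and CD86 engage CD28, which activates T cells, and CTLA4, which restrains them. HHLA2, VSIR (VISTA) and VSIG4 are further B7-related proteins, of which VSIG4 is also a complement receptor of macrophages. LGALS9 encodes galectin-9, a sugar-binding ligand of TIM-3. CD47 binds SIRPA on phagocytes and blocks engulfment, and SIGLEC9 is an inhibitory receptor for sialic acid on myeloid cells.

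Promoter windows are shown because OR21 is described as acting on DNA methylation, which in mammals sits mostly on CpG sites. Of the 10 genes, 9 matched a RefSeq table of promoters (GRCh38.p14), and the 250 bases before the start were used. The windows printed are those of CD86, VSIG4, VSIR and LGALS9, whose difference passed 2 log2 in a treated line with a value above background, of CD274, and of CD47, which was detected on every array. Each reads 5′ to 3′ on the strand of the gene, and capitals mark CpG sites.
CD86, chr3:122055112-122055361, plus strand: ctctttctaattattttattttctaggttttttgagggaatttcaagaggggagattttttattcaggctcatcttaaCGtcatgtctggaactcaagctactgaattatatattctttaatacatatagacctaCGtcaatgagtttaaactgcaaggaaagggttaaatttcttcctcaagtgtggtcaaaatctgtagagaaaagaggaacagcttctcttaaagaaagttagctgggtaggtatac
VSIG4, chrX:66040081-66040330, minus strand: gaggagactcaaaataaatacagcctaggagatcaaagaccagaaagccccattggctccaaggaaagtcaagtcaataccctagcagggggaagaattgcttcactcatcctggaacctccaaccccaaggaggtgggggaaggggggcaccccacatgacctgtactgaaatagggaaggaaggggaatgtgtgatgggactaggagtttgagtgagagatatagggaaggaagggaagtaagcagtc
VSIR, chr10:71773521-71773770, minus strand: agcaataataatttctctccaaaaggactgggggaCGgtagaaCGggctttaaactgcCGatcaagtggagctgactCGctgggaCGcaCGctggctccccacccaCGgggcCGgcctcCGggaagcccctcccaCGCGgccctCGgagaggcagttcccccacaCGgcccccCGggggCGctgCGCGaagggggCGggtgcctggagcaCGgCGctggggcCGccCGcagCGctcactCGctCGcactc
LGALS9, chr17:27630938-27631187, plus strand: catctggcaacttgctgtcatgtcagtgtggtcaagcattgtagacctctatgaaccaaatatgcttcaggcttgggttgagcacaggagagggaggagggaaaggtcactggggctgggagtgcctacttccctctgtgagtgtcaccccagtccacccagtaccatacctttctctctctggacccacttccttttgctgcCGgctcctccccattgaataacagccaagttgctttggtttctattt
CD274, chr9:5450292-5450541, plus strand: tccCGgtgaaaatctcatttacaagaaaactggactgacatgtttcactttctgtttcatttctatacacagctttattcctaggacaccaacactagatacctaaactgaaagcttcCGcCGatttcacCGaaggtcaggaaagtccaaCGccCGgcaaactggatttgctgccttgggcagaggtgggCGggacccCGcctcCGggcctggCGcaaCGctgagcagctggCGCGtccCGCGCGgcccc
CD47, chr3:108091032-108091281, minus strand: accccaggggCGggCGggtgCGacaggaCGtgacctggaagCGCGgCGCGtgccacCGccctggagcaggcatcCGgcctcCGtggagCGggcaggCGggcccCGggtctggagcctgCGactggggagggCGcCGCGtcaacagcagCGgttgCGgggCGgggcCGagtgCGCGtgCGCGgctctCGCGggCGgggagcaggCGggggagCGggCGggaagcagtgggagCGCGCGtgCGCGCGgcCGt

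The windows differed widely in CpG content, against a median of 11 CpG sites over 35116 windows of this length. VSIG4 had 0 CpG sites, LGALS9 had 1 and CD86 had 2 in the window printed and 4 in that of another start. CD47 had 39, more than 97.3% of all windows, VSIR 25 and CD274 16. Both windows of SIGLEC9 held 5, that of CD80 held 6, and the 3 windows of HHLA2 held 1, 3 and 0. The interferon-gamma motif TTCNNNGAA, which reads the same on both strands, was found in CD274 and in no other window of these genes, and 6.57% of all windows hold it. The core of the interferon-stimulated response element, GAAA, any 2 bases and GAAA on either strand, was found at 2 positions in CD274 and in no other window of these genes, and 3.02% of all windows hold it. A core that ETS factors such as PU.1 bind, GAGGAA on either strand, was found in 1 window of CD86 and in both of SIGLEC9, and 23.6% of all windows hold it. These matches describe letters only, and no methylation was measured here.

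One array differed from the rest in a technical measure. The 4 hybridisation spikes averaged 11.71 log2 intensity on the treated HL60 array and 10.85 to 11.10 on the others, so the mean response of each of the 10 genes is also given without HL60. A gene was called above background when it exceeded the 95th percentile of the 23 background probe sets of its array, which lay between 6.95 and 7.12 log2. Of all genes, this held for 48% in treated HL60 (46.8% in its control), 49.6% in treated MDSL (48.5% in its control), 49.3% in treated SKM1 (48.1% in its control) and 47% in treated K562 (46% in its control), and the derivatives had 47.5% (AZA resistant) and 47.9% (OR21 resistant). Marker genes were used to check the lines. MPO, the peroxidase of primary granules, stood at 17.01 log2 in control HL60, 17.08 in control SKM1, 8.62 in control MDSL and 6.23, under background, in control K562. Other primary granule genes in control MDSL were AZU1 at 13.83, CTSG at 11.56 and PRTN3 at 8.51. The erythroid factor GATA1 stood at 13.14 in control K562, and also at 10.99 in control MDSL. The erythroid markers KLF1 and HBE1 stood at 10.17 and 13.59 in control K562, but under background, at 5.34 and 5.83, in control MDSL. ANPEP, a myeloid surface peptidase, stood at 16.10 in control MDSL.

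Detection differed between the genes. CD47 was above background on all 10 arrays, LGALS9 on 8, VSIR on 7, CD86 on 5, SIGLEC9 on 4 and VSIG4 on 3. CD274 and HHLA2 were each above background on 1 array, and PDCD1LG2 and CD80 on none. These counts depend on the threshold. Against the median of the background probe sets they were 8 for CD86 and VSIG4, 9 for SIGLEC9, VSIR and LGALS9, 5 for CD80 and 3 for CD274. The minimum folds given below rest on the 95th percentile of the background probe sets. Against the 95th percentile of the negative controls, chosen after seeing the data, they were 4 for CD86, 1 for SIGLEC9 and 0 for CD274 and HHLA2. PDCD1LG2 lay between 3.86 and 4.58 log2 and CD80 between 4.94 and 6.24 over the 10 arrays, so no order of the samples can be given for either. Levels are compared below only between arrays, because probe sets of different genes differ in their response.

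Among the 4 controls, CD47 stood at 12.65 log2 in HL60, 12.20 for MDSL, 12.18 for SKM1 and 10.92 for K562. LGALS9 stood at 12.92 in HL60, 12.72 in MDSL and 12.16 in SKM1, but at 4.68 in K562, which is under background. VSIR was highest in control MDSL at 10.02, followed by HL60 at 8.39, and lay under background in K562 (6.35) and SKM1 (6.21). With 1 array per line, no spread separates neighbours in these orders. CD86, VSIG4, SIGLEC9, CD274, HHLA2, PDCD1LG2 and CD80 lay under background in all 4 controls.

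**Figure D1:**
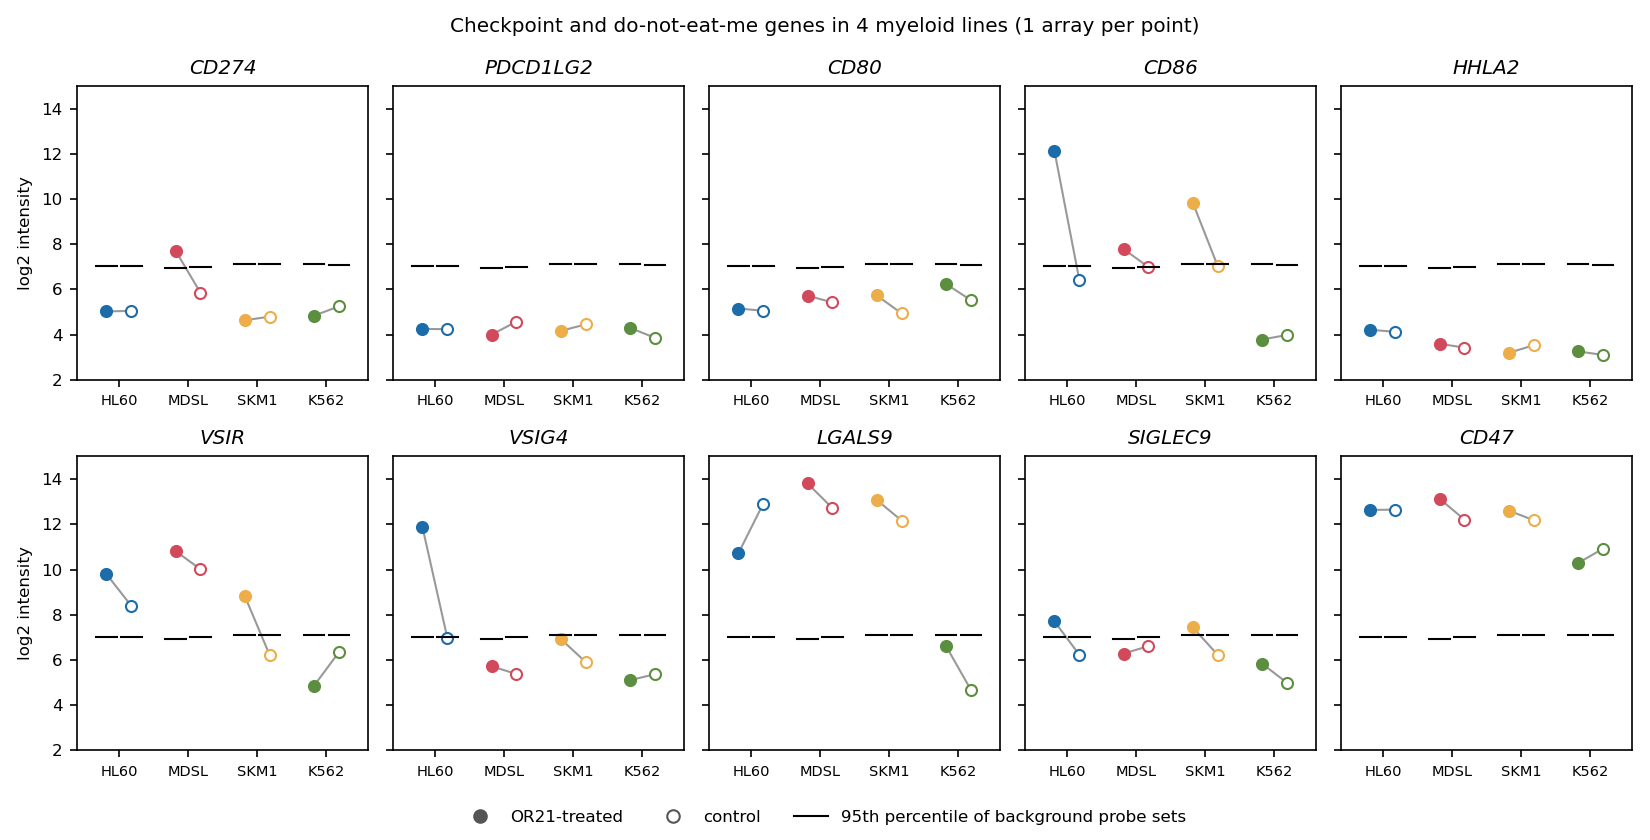
Level of each gene (y axis, log2 intensity) on the OR21-treated (filled) and control (open) array of each line (x axis), 1 array per point, with the 95th percentile of the background probe sets of each array as a short bar. CD86 (12.15) and VSIG4 (11.90) lie far above the bar in treated HL60 and under it in control HL60, LGALS9 is lower in treated than in control HL60 and higher in the treated cells of the other lines, and PDCD1LG2, CD80 and HHLA2 stay under the bar in all lines.

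OR21 was compared with control over the 4 lines to ask which of these genes respond. CD86, the costimulatory ligand, had 12.15 log2 in treated HL60, 7.79 in treated MDSL, 9.83 in treated SKM1 and 3.79 in treated K562, against 6.43, 6.99, 7.04 and 3.99 in the controls of these lines in the same order. It was thus higher in 3 of 4 lines, with a mean difference of 2.28 ± 2.61 log2 (SD, n = 4 lines, limma adjusted p = 0.244) and of 1.13 without HL60. Where a control lay under background, the fold is a minimum, taken against the 95th percentile of that array's background probe sets. CD86 was at least 34.5-fold higher in HL60, at least 6.63-fold higher in SKM1 and at least 1.71-fold higher in MDSL. In K562 neither array was above background.

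VSIG4, the macrophage receptor, had 11.90 log2 in treated HL60, 5.72 in treated MDSL, 6.93 in treated SKM1 and 5.11 in treated K562, against 6.99, 5.38, 5.91 and 5.37 in their controls. The HL60 array alone was above background, where VSIG4 was at least 29.1-fold higher than in control HL60. Over the 4 lines the mean difference was 1.5 ± 2.33 log2 (SD, n = 4 lines, limma adjusted p = 0.373), and 0.37 without HL60. SIGLEC9, the sialic acid receptor, had 7.71 in treated HL60, 6.28 in treated MDSL, 7.44 in treated SKM1 and 5.84 in treated K562, against 6.23, 6.61, 6.23 and 4.99 in their controls. It was at least 1.60-fold higher in HL60 and at least 1.26-fold higher in SKM1, under background in the other lines, and averaged 0.80 ± 0.80 (SD, n = 4 lines, limma adjusted p = 0.242), or 0.58 without HL60.

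VSIR, the B7 family member VISTA, had 9.80 log2 in treated HL60, 10.81 in treated MDSL, 8.83 in treated SKM1 and 4.86 in treated K562, against 8.39, 10.02, 6.21 and 6.35 in their controls. The difference was 1.41 in HL60 and 0.80 in MDSL, with both arrays of each line above background. In SKM1 it was at least 3.29-fold higher. The K562 difference of -1.49 lay wholly under background. The mean was 0.83 ± 1.72 (SD, n = 4 lines, limma adjusted p = 0.507). It was 0.64 without HL60, 0.24 without SKM1 and 1.61 without K562.

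LGALS9, galectin-9, had differences of opposite sign in different lines. It had 10.72 log2 in treated HL60, 13.81 in treated MDSL, 13.08 in treated SKM1 and 6.62 in treated K562, against 12.92, 12.72, 12.16 and 4.68 in their controls. The difference was -2.20 in HL60 but 1.09 in MDSL and 0.92 in SKM1, and that of 1.94 in K562 lay under background. The mean was 0.44 ± 1.82 (SD, n = 4 lines, limma adjusted p = 0.761), 1.32 without HL60 and -0.07 without K562. LGALS9B and LGALS9C are near copies whose probe sets may share signal with LGALS9. LGALS9C likewise had 9.44 in treated HL60 against 11.30 in control HL60, and 12.37 in treated MDSL against 10.95 in control MDSL.

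CD274, the PD-1 ligand, had 7.71 log2 in treated MDSL against 5.85 in control MDSL, and was at least 1.62-fold higher. It had 5.03 in treated HL60, 4.64 in treated SKM1 and 4.84 in treated K562, against 5.05, 4.80 and 5.25 in their controls, all under background. The mean of 0.32 ± 1.04 (SD, n = 4 lines, limma adjusted p = 0.709) became -0.20 without MDSL and 0.43 without HL60. CD47, the do-not-eat-me signal, had 12.64 in treated HL60, 13.13 in treated MDSL, 12.61 in treated SKM1 and 10.29 in treated K562, against 12.65, 12.20, 12.18 and 10.92 in their controls. Its differences were -0.01, 0.93, 0.42 and -0.64, each under 2-fold, with a mean of 0.18 ± 0.66 (SD, n = 4 lines, limma adjusted p = 0.777), -0.07 without MDSL and 0.24 without HL60.

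HHLA2, PDCD1LG2 and CD80 were under background on the treated and control arrays of all 4 lines. HHLA2 averaged 0.02 ± 0.24 log2 (SD, n = 4 lines, limma adjusted p = 0.969). PDCD1LG2 averaged -0.10 ± 0.43 (limma adjusted p = 0.841) and CD80 averaged 0.48 ± 0.33 (limma adjusted p = 0.260). Without HL60 the means were -0.0021 for HHLA2, -0.14 for PDCD1LG2 and 0.60 for CD80. CD80 was the 1 gene of the 10 with a higher value in 4 of 4 lines, as were 12.2% of all genes, and its HL60 difference of 0.10 turned to -0.07 when arrays were centred on their medians.

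**Figure D2:**
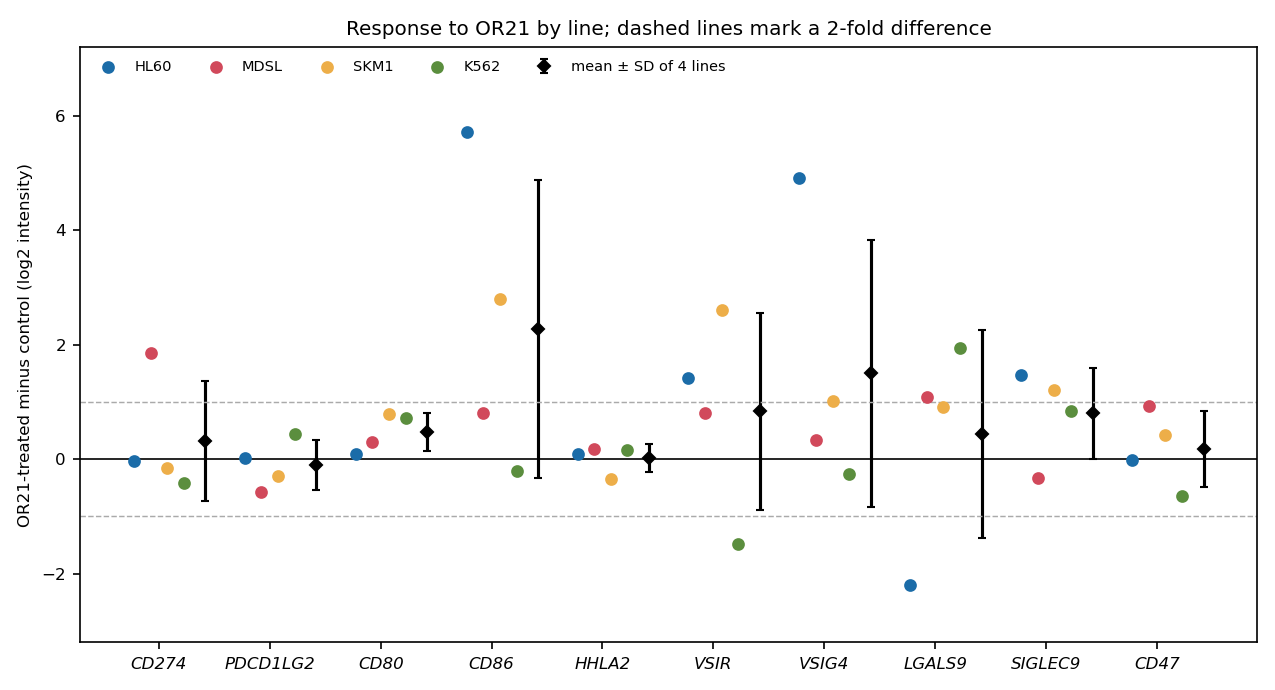
OR21-treated minus control difference of each gene (y axis, log2 intensity) in HL60, MDSL, SKM1 and K562, 1 point per line, with the mean and SD of the 4 lines as a black diamond and bar. The HL60 points of CD86 (5.71) and VSIG4 (4.91) lie highest, that of LGALS9 (-2.20) lies lowest, and the SD bars of all genes but CD80 and SIGLEC9 reach across or to below 0.

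The p-values rest in part on the spread of each gene between lines. Nothing says that arrays came from separate cultures, and 4 pairs of arrays limit the precision of the p-values. For OR21 against control, limma drew the variance of each gene towards a value shared across the array. The shared value had a weight of 3.49 and the gene's own variance one of 3, so no p follows from the printed SD alone. In limma with the line as a block and adjustment over all 17687 genes, 0 of the 10 genes passed the threshold of 0.05, beside 0.0396% of all genes. At an unadjusted p under 0.05 there were 3 of the 10, CD86, SIGLEC9 and CD80, beside 19.1% of all genes. The limma standard errors of these 3 were 0.90, 0.32 and 0.20 log2, beside SDs between lines of 2.61, 0.80 and 0.33. Their place under 0.05 thus depends on the shared variance as well as on their own spread. By mean difference 9 of 10 were higher, with a median of 0.46 log2, against -0.02 over all genes. By size alone, 4 of 10 were at least 2-fold higher and 1 lower in HL60, beside 10.2% and 11.1% of all genes. In MDSL 2 were higher and 0 lower, beside 6.62% and 4.88%. In SKM1 4 were higher and 0 lower, beside 7.1% and 4.47%, with VSIG4 just past 2-fold and under background. In K562 1 was higher and 1 lower, beside 5.05% and 3.86%, and neither had a value above background. These single-line counts have no replicate check.

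The lines at 500 nM were also set against those at 100 nM, a split that cannot be told apart from leukaemia against myelodysplastic lines. Of the 10 genes 0 passed in limma, and 0 had an unadjusted p under 0.05, beside 0% and 5.47% of all genes. The smallest p was that of CD47, whose response in the 500 nM lines was lower by a difference of -1.0 ± 0.42 log2 (SE) than in the 100 nM lines (limma adjusted p = 0.877). For VSIR the difference was -1.75 ± 1.10 (SE, limma adjusted p = 0.886) and for CD274 -1.07 ± 0.71 (SE, limma adjusted p = 0.886). Leaving out 1 line at a time, these ranged from -3.19 to -0.30 for VSIR and from -2.08 to -0.06 for CD274.

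The resistant derivatives were compared with parental HL60 to see what resistant cells carry without treatment. Both comparisons share the parental control array with the OR21 response of HL60, so the values are given side by side. VSIG4 had 10.00 log2 in AZA resistant and 11.98 in OR21 resistant cells, against 6.99 in parental HL60, at least 7.82-fold and at least 30.9-fold higher. Treated HL60 stood at 11.90. CD86 had 8.56 in AZA resistant and 9.48 in OR21 resistant cells, against 6.43 in parental HL60, at least 2.89-fold and at least 5.45-fold higher, and treated HL60 stood above both at 12.15. SIGLEC9 had 7.42 in AZA resistant and 9.37 in OR21 resistant cells, against 6.23 in parental HL60, at least 1.30-fold and at least 5.05-fold higher. In treated HL60 SIGLEC9 had 7.71, below the OR21 resistant cells.

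CD47 was lower in both derivatives, at 11.61 log2 in AZA resistant and 11.02 in OR21 resistant cells, against 12.65 in parental HL60. The differences were -1.04 and -1.63, with every array above background, and treated HL60 at 12.64 was close to the parental control. LGALS9 had 11.60 in AZA resistant and 12.21 in OR21 resistant cells, against 12.92 in parental HL60, differences of -1.32 and -0.70. HHLA2 had 7.56 in AZA resistant cells, its one value above background on the 10 arrays, against 4.13 in parental HL60. It was at least 1.44-fold higher in AZA resistant cells, and OR21 resistant cells had 4.90, under background. VSIR stood at 8.52 in AZA resistant and 8.56 in OR21 resistant cells, against 8.39 in parental HL60. CD274 had 5.55 in AZA resistant and 4.77 in OR21 resistant cells, against 5.05 in parental HL60, and like PDCD1LG2 and CD80 it was under background in all 3.

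**Figure D3:**
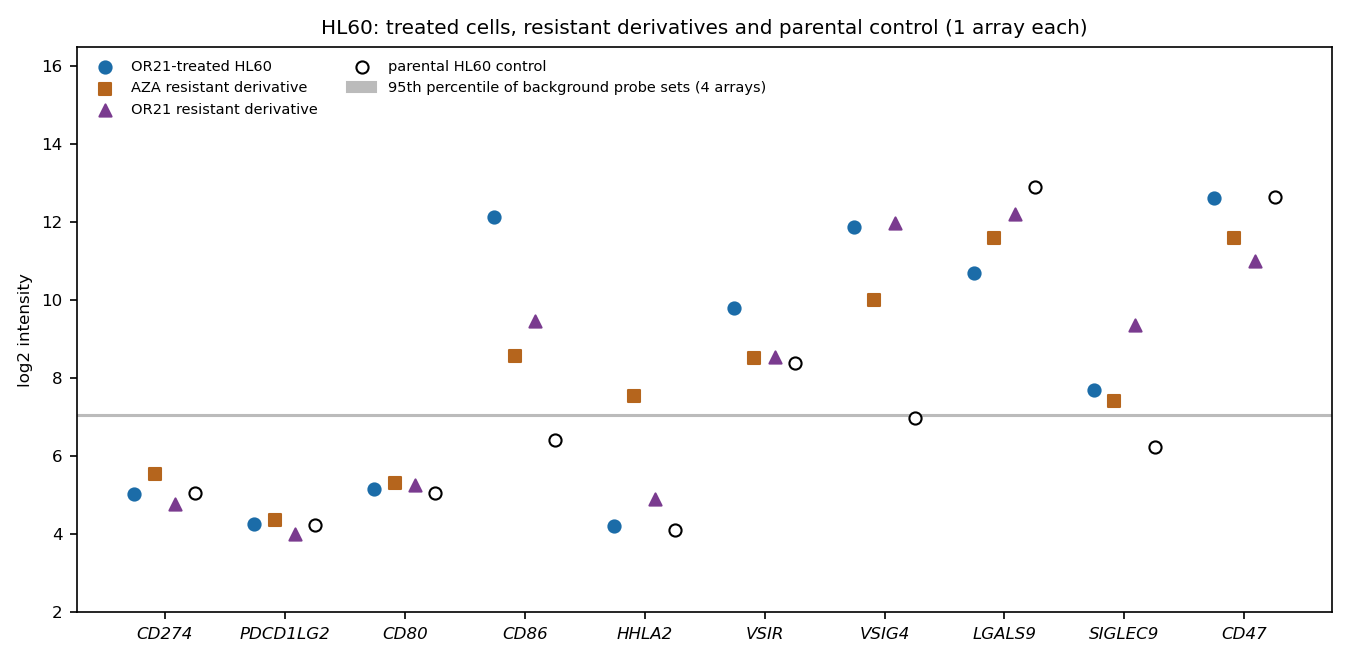
Level of each gene (y axis, log2 intensity) in OR21-treated HL60, the AZA resistant and the OR21 resistant derivative and the parental control, 1 array per point, with the 95th percentile of the background probe sets as a grey band. VSIG4, CD86 and SIGLEC9 lie above the band in all but the parental control, and CD47 is lower in both derivatives (11.61 and 11.02) than in treated (12.64) and parental (12.65) HL60.

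In AZA resistant cells, 4 of the 10 exceeded parental HL60 by 2-fold or more and 2 fell short of it by as much, beside 7.04% and 5.11% of all genes. In OR21 resistant cells 3 were higher and 1 lower, beside 7.69% and 4.27%. Set directly against AZA resistant cells, OR21 resistant cells differed by 1.98 log2 for VSIG4 and 1.96 for SIGLEC9, both with all values above background, and by -2.66 for HHLA2, which was at least 1.44-fold lower. By size, 2 of 10 were at least 2-fold higher and 1 lower, beside 0.678% and 0.888% of all genes. CD86 differed by 0.92, LGALS9 by 0.62 and CD47 by -0.60.

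Genes that mark myelomonocytic maturation had a higher summed signal in treated HL60, MDSL and SKM1 and in both derivatives, and a lower one in treated K562, than on the control array of the line. Of 28 measured, 27 were higher by the mean of the 4 lines and 0 passed the test in either direction. Their summed intensity was 19.45 log2 in treated HL60, 18.77 in AZA resistant and 18.74 in OR21 resistant cells, against 18.01 in parental HL60. It was 17.15 in treated MDSL against 15.84 in its control, 18.82 in treated SKM1 against 17.60 in its control, and 14.18 in treated K562 against 14.40 in its control. Such a sum is weighted towards the brightest genes. The median difference of the list in K562 was 0.08 log2, and -0.06 when arrays were centred on their medians. CD14, the endotoxin co-receptor of monocytes, had 14.60 in treated HL60, 8.01 in AZA resistant and 10.70 in OR21 resistant cells, against 7.64 in parental HL60. All 5 monocyte and macrophage markers were higher by the mean of the 4 lines and 0 passed. Among them MRC1 had 4.02 in treated HL60 against 3.93 in its control, under background, and CD163 had 7.11 against 6.88. Some markers of other cell types were also higher in treated HL60. KRT18, an epithelial keratin, had 10.87 against 4.87, under background, in its control. CD3D, a T cell receptor subunit, had 7.21, just above the background threshold of 7.03, against 3.96, under background, in its control. Of 4 dendritic markers, CD1C had 9.69 in treated SKM1 against 5.88, under background, in its control. FCER1A had 15.68 in treated MDSL against 13.27 in its control. In SKM1 it had 7.02 against 3.84, both under background, and CLEC9A and CLEC10A were above background on no array. Of 3 B cell markers, CD79A was above background on all 10 arrays, and MS4A1 and PAX5 were on none. Of 5 fibroblast and endothelium markers, COL1A2 was above background on all 10 arrays and VWF on both MDSL arrays, and COL1A1, DCN and CDH5 were on none. In bulk RNA, a larger number of cells of a type and more RNA per cell cannot be told apart, and the part of maturation in these results was not tested.

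The median interferon-stimulated gene was higher in the treated cells of all 4 lines, while CD274 was detected in treated MDSL alone. Of 42 interferon-stimulated genes, 42 were higher by the mean of the 4 lines and 1, IFI6, passed the test. IFI6 averaged 4.09 ± 0.79 log2 (SD, n = 4 lines, limma adjusted p = 0.0271), with a higher value on all 4 treated arrays. The median difference of the list was 1.5 in MDSL, against 1.28 for SKM1, 0.95 for HL60 and 0.47 for K562. In K562 the median level lay under background on both arrays, at 5.82 in treated and 5.63 in control cells. Only 15 of the 42 genes in treated and 8 in control K562 were above background. The part of interferon genes in the CD274 value was not tested. Of 18 genes of the interferon route to CD274, 16 were higher on average and 0 passed. IRF9, which joins STAT factors on interferon response elements, had 13.57 in treated MDSL against 8.97 in its control, and was at least 12.95-fold higher in SKM1 and at least 7.38-fold higher in HL60, where CD274 stayed under background. The kinase JAK1 differed by 0.96 ± 0.64 (SD, n = 4 lines, limma adjusted p = 0.156). Of 21 regulators of CD274 protein, 11 were higher and 10 lower on average, and 0 passed. CMTM6, which keeps PD-L1 at the cell surface, had its largest difference in MDSL (1.69), against 1.16 for HL60, 1.10 for SKM1 and 0.15 for K562. CMTM4, its relative, averaged 0.72 ± 0.27 (SD, n = 4 lines, limma adjusted p = 0.139).

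Other B7 and checkpoint ligands showed no common direction, with 15 of 26 higher on average, 11 lower and 0 past the test. LGALS3, galectin-3, had 13.14 log2 in treated HL60, 12.57 in AZA resistant and 11.57 in OR21 resistant cells, against 7.76 in parental HL60. LGALS1, galectin-1, had 14.69 in treated HL60, 14.49 in AZA resistant and 14.46 in OR21 resistant cells, against 10.12 in parental HL60. These galectins were thus higher on the 3 arrays on which LGALS9 was lower than in parental HL60. NCR3LG1, the B7 family ligand of the activating NK receptor NKp30, had 6.36 in treated HL60, under background, against 9.81 in control HL60, at least 6.83-fold lower. CD24, a do-not-eat-me ligand of SIGLEC10, had 11.82 in treated MDSL against 8.99 in its control, and 11.22 in treated K562 against 9.41 in its control. In OR21 resistant cells CD24 had 6.67, under background, against 8.40 in parental HL60, at least 2.56-fold lower. AZA resistant cells had 8.04.

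Among receptors, 14 of 19 were higher on average and 0 passed. Few of the 19 were detected, from 0 above background on both K562 arrays to 7 in treated MDSL. SIRPB1, an activating relative of the CD47 receptor, had its largest difference in SKM1 (2.14 log2), against 1.75 for MDSL, 1.39 for HL60 and 0.13 for K562, with a mean of 1.35 ± 0.87 (SD, n = 4 lines, limma adjusted p = 0.133). CD44, a surface receptor that galectin-9 can bind, had 11.68 in treated HL60 against 8.00 in its control. Of 9 other sialic acid receptors, 8 were higher on average and 0 passed, with SIGLEC10 differing by 1.38 in HL60 and 1.97 in SKM1. From 1 of the 9 in control K562 to 5 in treated MDSL were above background. SIGLEC7, a close relative of SIGLEC9, had 8.42 in AZA resistant and 8.09 in OR21 resistant cells, against 6.05 in parental HL60, at least 2.6-fold and at least 2.08-fold higher. Of 18 genes of engulfment, 13 were higher on average and 0 passed, with medians of 1.34 in HL60 and 0.34 in MDSL. MERTK, a receptor for dying cells, was at least 2.11-fold higher in treated HL60, at least 3.48-fold in AZA resistant and at least 4.50-fold in OR21 resistant cells.

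Of 13 galectins, 10 were higher on average, as were 12 of 16 TNF family and adhesion ligands, 7 of 12 ligands of NK receptors and 9 of 12 immunosuppressive enzymes and cytokines, and 0 passed in each. By comparison, 9 of the 10 genes described here were higher on average. The share of all genes that were higher on average was not counted, and the median of their mean differences was -0.02 log2.

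**Figure D4:**
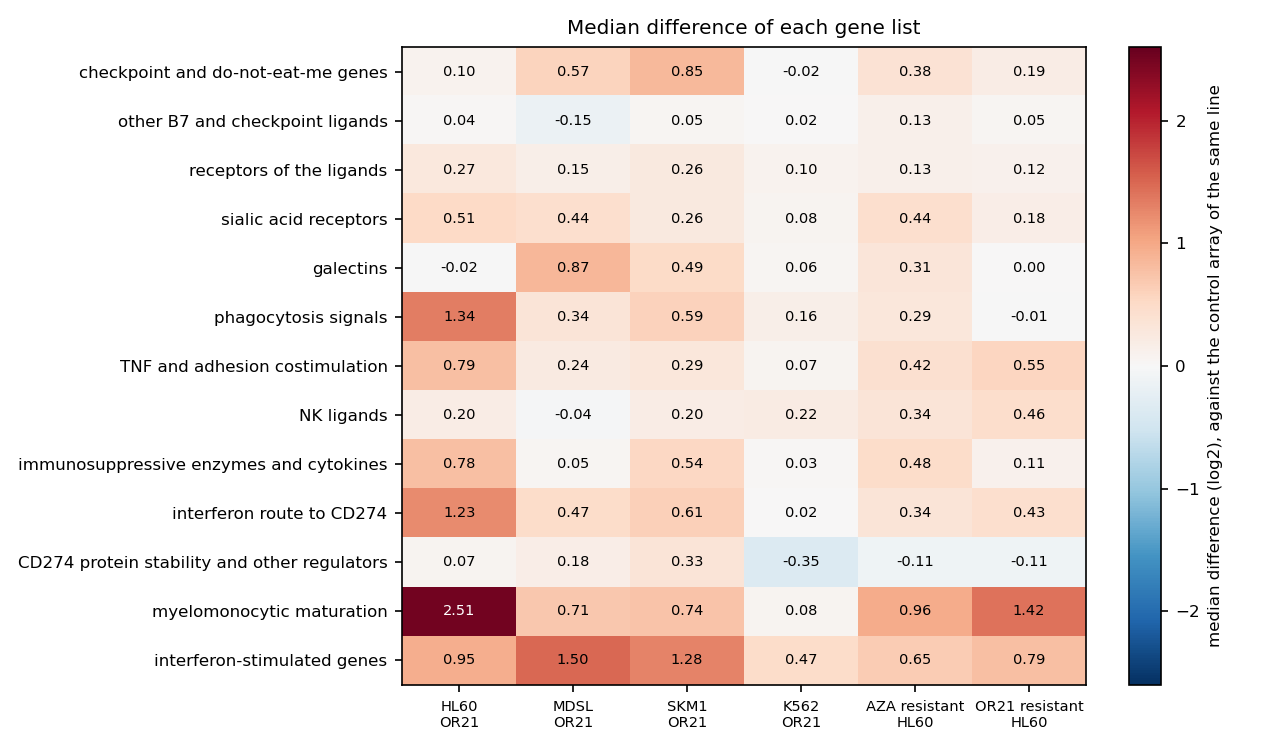
Median difference (log2, colour and number) of 13 gene lists (down the page) in the OR21 response of HL60, MDSL, SKM1 and K562 and in the AZA resistant and OR21 resistant HL60 derivatives (columns), each against the control array of the same line. Myelomonocytic maturation genes have a median of 2.51 in HL60 and interferon-stimulated genes one of 1.5 in MDSL, cell type marker lists are not drawn, and medians within 0.17 of 0 can change sign when arrays are centred on their medians.

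The genes whose levels ran most like each of these were found by Pearson correlation over the 10 arrays, which share 4 lines, 4 of the arrays being HL60 cells, and are not independent. The closest to CD86 was GPR65, an acid-sensing receptor (r = 0.967), and the closest to VSIG4 was FAM9C (r = 0.955). SIRPG, a CD47 receptor of T cells, was the third for VSIG4 (r = 0.946). It had 7.34 log2 in treated HL60, its one value above background. The values of 5.77 in AZA resistant cells, 5.98 in OR21 resistant cells and 4.75 in parental HL60 were under background. LGALS9 ran with DTNB (r = 0.981) and with IFIH1, an RNA sensor (r = 0.979), VSIR with RIN3 (r = 0.971), SIGLEC9 with BICRAL (r = 0.939) and CD47 with PSD4 (r = 0.953). Among the 10 genes themselves the highest correlations were 0.85 between VSIG4 and SIGLEC9, 0.785 between CD86 and SIGLEC9 and 0.773 between CD86 and VSIG4. Many of the values behind them were under background, since VSIG4 was above it on 3 arrays, SIGLEC9 on 4 and CD86 on 5. CD274 and PDCD1LG2, adjacent protein-coding genes on chromosome 9, had -0.17 between them, with 1 of their values above background.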

How the data were processed

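The authors deposited 1 table of array intensities on a linear scale, 4.25 to 405294.4, over 24351 probe sets and 10 arrays. Per the labels' protocols, total RNA from a Direct-zol extraction carried a biotin label. The software and normalization behind the intensities are not given in the sources used here, and the values were treated as already normalized. Gene names came from the platform annotation: 17709 probe sets had 1 symbol, 0 had several and 6642 were not listed. Where a gene had more than 1 probe set, the one with the highest mean log2 value was kept. This left 17687 genes, and each of the 10 genes reported had 1 probe set. Intensities were taken to log2. OR21 was tested against control with limma 3.58.1 in R 4.3.3, with the line as a block and Benjamini-Hochberg adjustment over all genes. The line pairs each treated array with its own control. Single lines and derivatives, with 1 array each, have values and no p. The fits were tested on simulated data.

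The 10 genes and the other gene lists were chosen with earlier results of these data known. All 10 were named. From each list up to 4 genes with the smallest p and up to 2 with the largest single difference were eligible. The 3 most correlated were eligible for each of the 10 genes that met 2 conditions. These were a range of at least 2 log2 and a value above background on at least 2 arrays. Alternatives were quantile normalization, median centring, an offset of 16 before log2, a filter on dim probe sets and the mean of the probe sets of a gene. Further ones were no block, other background thresholds and leaving out each line.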

Additional observations from a re-analysis of the deposited data

Results flagged for a closer look

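In 30 groups of 4 values, 4 values stood apart from the other 3 by Dixon's test, which chance does in about 1 in 20 groups. CD274 accounts for a pair of them: the difference of 1.86 log2 in MDSL against -0.41 to -0.02 in the other lines, and the level of 7.71 in treated MDSL against 4.64 to 5.03 in the other treated lines. LGALS9 stood at 4.68 in control K562, against 12.16 to 12.92 in the other controls. HHLA2 differed by -0.34 in SKM1, against 0.09 to 0.17 in the other lines, with every one of these arrays under background.

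For 2 genes the response had opposite signs at the 2 doses, a split that cannot be told apart from leukaemia against myelodysplastic lines. CD47 had -0.01 in HL60 and -0.64 in K562 at 500 nM, and 0.93 in MDSL and 0.42 in SKM1 at 100 nM, a difference of -1.0 (limma adjusted p = 0.877). Under quantile normalization the HL60 value turned to 0.10. PDCD1LG2 had 0.01 and 0.44 at 500 nM, and -0.58 and -0.29 at 100 nM, a difference of 0.66 (limma adjusted p = 0.882), under background on all arrays.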

How the results depend on the processing

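No alternative took any of the 10 genes past the threshold. With the line as a block 7 genes of the array passed, against 1 with no replicate block, 3 with an offset of 16 and 0 to 5 when a line was left out. Leaving out each line in turn moved the mean over lines from -0.20 to 0.56 for CD274, -0.28 to 0.056 for PDCD1LG2, -0.029 to 0.14 for HHLA2, -0.066 to 1.32 for LGALS9 and -0.075 to 0.45 for CD47. The dose difference ranged from -0.048 to 0.46 for HHLA2, -3.21 to 0.94 for LGALS9, -0.45 to 0.17 for CD80, -2.0 to 3.91 for CD86, -0.95 to 4.23 for VSIG4 and -0.052 to 1.5 for SIGLEC9. Median centring gave -0.11 for the mean of HHLA2. It shifted the median difference of all genes by -0.17 in HL60, -0.15 in SKM1, -0.14 in K562, -0.17 in AZA resistant and -0.15 in OR21 resistant cells. In AZA resistant cells VSIR then turned to -0.04. VSIG4 in SKM1 had 0.88 under quantile normalization and under centring, and 0.86 with the offset. Under quantile normalization CD47 in AZA resistant cells had -0.95, leaving 1 gene at least 2-fold lower there. Of the values of the 10 genes, 39 were above background, against 62 with the background median and 33 with the negative controls. Without HL60, chosen after seeing the data, differences of at least 2-fold with a value above background numbered 5, against 10. The cause was not tested. Signal over background limits PDCD1LG2, CD80, HHLA2 and CD274.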

Other observations

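In the resistant derivatives, with 1 array each and no test, a minority of other immune genes differed from parental HL60 by 2-fold or more. Of 16 TNF family and adhesion ligands, 6 were higher in AZA resistant and 6 in OR21 resistant cells, against 1 and 0 lower. Of 12 ligands of NK receptors, 3 were higher in each derivative and 1 was lower in each, and of 12 immunosuppressive enzymes and cytokines 3 and 4 were higher and 0 lower. Of all genes, 7.04% were higher and 5.11% lower by 2-fold or more in AZA resistant cells, and 7.69% and 4.27% in OR21 resistant cells. The genes named next include those with the largest single differences. NCR3LG1 went the other way, at 8.04 in AZA resistant and 8.71 in OR21 resistant cells, against 9.81 in parental HL60. NT5E, the ectoenzyme that makes adenosine, had 11.11 log2 in AZA resistant and 10.90 in OR21 resistant cells, against 6.37 in parental HL60, at least 16.9-fold and at least 14.6-fold higher. CD70, the ligand of the costimulatory receptor CD27, had 9.15 and 8.86 in the AZA and OR21 resistant cells, against 4.48 in parental HL60, at least 4.34-fold and at least 3.55-fold higher. ULBP2, a ligand of the activating NK receptor NKG2D, had 8.95 and 9.09, against 6.69, at least 3.78-fold and at least 4.14-fold higher. TGFB1, an immunosuppressive cytokine, had 10.62 and 10.88, against 7.52. TNFSF13B, the B cell factor BAFF, had 12.72 and 13.07, against 10.81 in parental HL60, while OR21-treated HL60 had 8.37. PTPN1, a phosphatase that dampens JAK signalling, had 15.92 and 15.77, against 11.45 in parental HL60 and 12.13 in OR21-treated HL60.

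In treated HL60, THBS1, which encodes the CD47 ligand thrombospondin-1, had 12.42 against 5.89 in its control, at least 41.8-fold higher. LRP1, a receptor that takes up calreticulin-marked cells, had 10.64 against 6.23, at least 12.2-fold higher. Both derivatives stood near the parental control for THBS1, at 6.33 (AZA resistant) and 5.96 (OR21 resistant).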
